A study of Mus musculus with 2 samples.

Results

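Type I interferon stimulated genes were examined in liver macrophages of WT and FABP7 KO mice carrying liver metastases. The set comprised 41 genes chosen by symbol from this well-known class, and all 41 were found among the 22322 genes of the deposited table. By role, they were transcription factors of the interferon signal (Stat2, Irf9, Irf7), nucleic acid sensors and PKR (Ddx58, Ifih1, Dhx58, Zbp1, Eif2ak2, Ifi203, Ifi204), the IFIT family (Ifit1, Ifit2, Ifit3, Ifit3b), the OAS family (Oas1a, Oas1g, Oas2, Oas3, Oasl1, Oasl2) and the ISG15 system (Isg15, Usp18, Herc6). The remaining genes were antiviral effectors (Mx1, Mx2, Rsad2, Cmpk2, Isg20, Samhd1, Bst2, Ifitm3, Trim30a) and other interferon stimulated genes (Ifi27l2a, Ifi44, Ifi35, Rtp4, Xaf1, Parp14, Slfn5, Slfn8, Lgals3bp).

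Both libraries came from C57BL/6 mice by the labels (the methods give C57BL/6 J for the knockout) that received 500000 MC38 cells, a mouse colon carcinoma line, in 100 µl by injection into the spleen, and liver macrophages were taken by positive selection for F4/80 on day 10. One library was from WT mice and the other from FABP7 KO mice, whose knockout is present in every tissue, so that the macrophages are not the only cells without the gene. According to the methods the mice were young adult males, whereas it is not stated how many mice each library was made from, and 1 field of the labels calls the KO sample a knockdown. No library from tumour-free mice was part of the comparison. With 1 library per genotype, the spread between mice is unknown and p-values are not given. Fabp7 (ENSMUSG00000019874) stood at 354 FPKM in WT and 0.69 in KO, where FPKM is the fragment count scaled to transcript length and to library size.

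Type I interferons are secreted when a cell senses foreign or misplaced nucleic acid. They bind the receptor formed by Ifnar1 and Ifnar2, the kinases Jak1 and Tyk2 phosphorylate STAT proteins, and Stat2 and Irf9 take part in the complex ISGF3, which binds the interferon stimulated response element (ISRE) in front of its target genes. The products of these targets detect viral RNA and DNA, block viral entry, translation and replication, and feed back on the signal itself. Macrophages of the liver sit in the sinusoids, where they are exposed to microbial products from the gut, and are known to express many of these genes.

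The FABP7 KO and WT libraries held the interferon stimulated genes at similar levels. Differences are given as the log2 ratio of FPKM + 1, KO over WT, and a gene counted as higher or lower when this ratio was at least 1 in size, that is 2-fold. Of the 41 genes, 0 were higher and 0 were lower in KO by this rule, beside 2.21% of the 10770 measured genes (those reaching 1 FPKM in WT or KO) that were higher and 2.95% that were lower (5.16% in either direction). Among the 7562 genes within the same range of mean FPKM, 1.44% were higher and 2.39% lower (3.83% in either direction), so a count of 0 among 41 genes is little below the background. At a smaller size of 0.5, Slfn8 was the 1 gene above and Isg15 the 1 gene below, where 10.5% and 10.1% of all measured genes passed (20.7% in either direction). In the same FPKM range these shares were 6.39%, 9.59% and 16%.

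The ratios of the 41 genes lay close to 0 in both directions. Their median was 0.008, against 0.004 over all measured genes, with 21 genes above 0 and 20 below. The middle of the distribution ran from -0.18 to 0.15, a width of 0.33 between the quartiles, whereas that of all measured genes was 0.48 wide. Ratios within 0.2 of 0 were found for 23 of the 41 genes (56.1%), compared with 42.7% of all measured genes and 46.1% of those in the same FPKM range. The lowest ratio was -0.62 for Isg15 and the highest 0.52 for Slfn8.

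**Figure D1:**
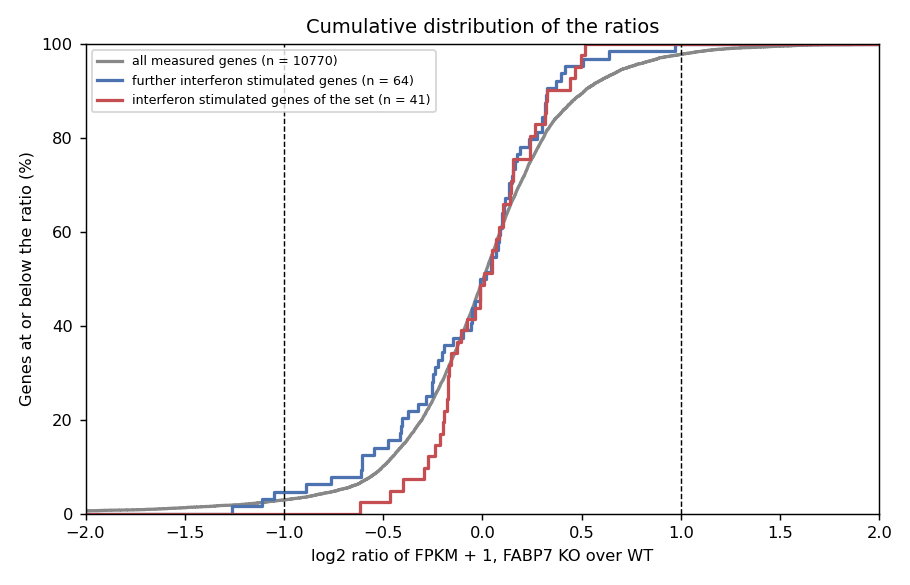
Cumulative share of genes (percent) at or below each ratio of FABP7 KO over WT (log2 of FPKM + 1), for the 41 interferon stimulated genes, 64 further interferon stimulated genes and all 10770 measured genes. Dashed lines mark the 2-fold size rule. The curve of the 41 genes runs from -0.62 to 0.52 and crosses the middle at 0.008, near the 0.004 of all genes.

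These genes were among the more abundant transcripts of both libraries. Their median level was 83.9 FPKM in WT and 81.0 in KO, whereas the median of all measured genes was 10.9 and 10.6 FPKM. At least 100 FPKM in both libraries was reached by 17 of 41 genes (41.5%), compared with 5.83% of all measured genes. Their summed level was 6880.3 FPKM in WT and 6609 in KO, a difference of -3.95%, beside -3.12% for the summed FPKM of all genes. Isg20 at 5.56 and 4.82 FPKM and Mx2 at 8.28 and 10.6 FPKM were the least abundant. Ifitm3, Irf7 and Lgals3bp held ranks 1, 2 and 3 of the 41 in both libraries, and log2 FPKM of the 2 libraries correlated across the 41 genes with a Pearson r of 0.987 and a Spearman rho of 0.975. These are correlations across genes of the same 2 libraries, and genes are not independent replicates. The largest shifts in rank were 7 places, for Parp14 from 25 in WT to 18 in KO and for Isg15 from 20 to 27. Without replicates no spread is known, so which neighbours in this order differ cannot be stated.

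**Figure D2:**
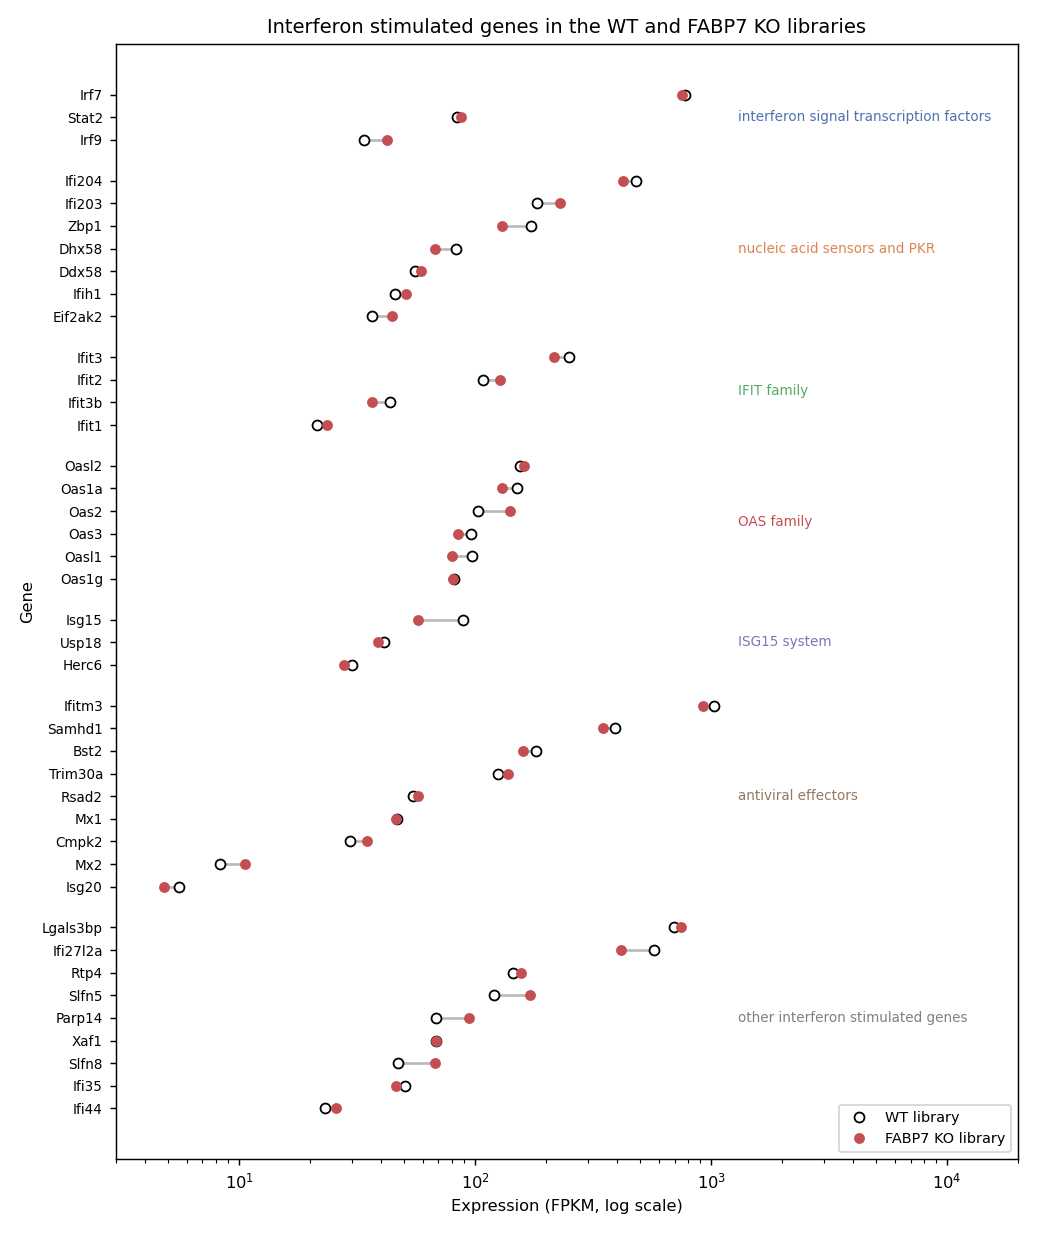
Level of each of the 41 interferon stimulated genes in FPKM (log axis), with 1 point for the WT and 1 for the FABP7 KO library, grouped by role. Levels run from 4.82 FPKM (Isg20 in KO) to 1030.3 FPKM (Ifitm3 in WT), and the points of the 2 libraries lie close together for most genes.

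The files hold no counts. When FPKM of short genes with low values was turned back into fragments, 89.8% of 157 values in WT and 92.7% of 150 in KO came within 0.15 of a whole number at the depth that served best, where 30% is the share at an arbitrary depth. This puts the depth at about 18250000 fragments in WT and 18100000 in KO, assuming exon lengths like those of the reference. On this estimate the 41 genes rested on at least 162 fragments each, and the 95% counting interval of the log2 ratio reached 0.016 to 0.30 to either side. It lay wholly above 0 for 20 genes and wholly below 0 for 16. The share of all measured genes with such an interval was not computed, so these counts do not set the 41 genes apart. These intervals cover counting error only, and differences between mice and between preparations are not in them.

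Promoter sequences were inspected because ISGF3 acts through the ISRE. Of the 41 genes, 31 matched a promoter in the RefSeq table (GRCm38.p6), which spans 250 bases before and 50 bases after each gene start. The ISRE core was searched as 2 copies of GAAA separated by 2 bases of any kind, on both strands. It was present in 18 of the 31 promoters (58.1%), whereas 3.99% of the promoters of all 27025 genes and 4.11% of those of 8570 measured genes held it. The GAS motif bound by STAT dimers, searched as TTC and GAA separated by 3 bases of any kind, was present in 8 of 31 (25.8%) and in 9.55% of all promoters; the 2 motifs occurred together in 4 promoters and their letters overlapped in 2. Nearest to the start, the core lay before it in 13 promoters and after it in 5, and the farthest began 222 bases before it, in Stat2. The bases before the start are shown for the most abundant gene of the IFIT, OAS, ISG15 and antiviral effector groups, and for Slfn8, the gene with the highest ratio, added after its value was seen. Capitals mark ISRE cores, all are written 5′ to 3′ on the strand of the gene and end at the base before the start. Ifit3 (chr19:34583373-34583528, plus strand) holds 2 separate cores, Isg15 (chr4:156200819-156200968, minus strand) 3 overlapping cores and Slfn8 (chr11:83020811-83020960, minus strand) 1 core, while Oasl2 (chr5:114896784-114896933, plus strand) and Ifitm3 (chr7:141010745-141010894, minus strand) hold none in the stretch shown.
Ifit3: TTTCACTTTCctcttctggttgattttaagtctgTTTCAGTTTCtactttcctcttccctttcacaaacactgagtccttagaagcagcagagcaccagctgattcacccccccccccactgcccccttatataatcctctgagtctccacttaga
Isg15: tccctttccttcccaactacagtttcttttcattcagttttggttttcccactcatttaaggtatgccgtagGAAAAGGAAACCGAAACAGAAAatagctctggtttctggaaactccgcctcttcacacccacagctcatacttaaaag
Slfn8: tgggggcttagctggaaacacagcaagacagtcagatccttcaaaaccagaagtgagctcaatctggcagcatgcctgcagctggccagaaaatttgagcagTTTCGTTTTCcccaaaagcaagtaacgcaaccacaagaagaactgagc
Oasl2: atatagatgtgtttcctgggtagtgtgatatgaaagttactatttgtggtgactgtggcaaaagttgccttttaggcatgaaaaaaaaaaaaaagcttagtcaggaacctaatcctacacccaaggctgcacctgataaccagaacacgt
Ifitm3: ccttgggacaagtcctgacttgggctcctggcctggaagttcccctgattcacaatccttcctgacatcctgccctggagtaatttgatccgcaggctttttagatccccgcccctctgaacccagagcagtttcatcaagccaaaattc

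The cores of Ifit3 began 156 and 122 bases before the start, those of Isg15 78, 72 and 66 bases before it, and that of Slfn8 48 bases before it. Ifitm3 carried 2 cores after the start, from base 3 to 12 and from base 20 to 29. For Oasl2 these letters were not found in the window, which says nothing of elements elsewhere. Genes with a core spanned the whole range of ratios. The 18 genes with a core had a median log2 ratio of 0.06, ranging from -0.62 (Isg15) to 0.52 (Slfn8). The 13 genes without one had a median of 0.008 (-0.27 to 0.32), and the 10 genes with no promoter in the table had a median of -0.05.

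Among the transcription factors of the interferon signal, Irf7 was the most abundant and Irf9 had the largest ratio. Irf7, which drives the interferon alpha genes and amplifies the response, stood at 774 FPKM in WT and 755 in KO, a log2 ratio of -0.04 whose sign turns to 0.0007 and 0.01 under 2 other scalings of the libraries. Stat2, the subunit of ISGF3 that carries its main activating domain, stood at 83.9 and 86.8 FPKM (ratio 0.05). Irf9, the DNA-binding subunit of ISGF3, stood at 33.8 FPKM in WT and 42.5 in KO, a ratio of 0.32 with a counting interval from 0.26 to 0.39.

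The nucleic acid sensors had a median ratio of 0.08, with 4 of 7 above 0. The RNA helicases that signal through Mavs were both slightly above 0. Ddx58, which encodes RIG-I, stood at 55.9 FPKM in WT and 59.3 in KO (ratio 0.08). Ifih1, which encodes MDA5, stood at 45.9 and 51.1 FPKM (0.15). Dhx58 encodes LGP2, a relative without a signalling domain that modulates the other helicases, and was at 83.0 and 67.5 FPKM (-0.29). Zbp1, a sensor of Z-form nucleic acids that can trigger necroptosis, stood at 172 FPKM in WT and 131 in KO, a ratio of -0.40 and the lowest of this group. Eif2ak2 encodes PKR, the kinase that halts translation when it binds double-stranded RNA, and stood at 36.7 and 44.3 FPKM (0.27). The 2 neighbouring genes of the p200 family, whose products bind DNA, had ratios of opposite sign: Ifi203 stood at 184 FPKM in WT and 229 in KO (0.32), and Ifi204 at 479 and 424 FPKM (-0.18). Ifi204 shares 13.2% of its 75-base stretches with other genes, mostly with Ifi211, so its reads could have been divided among copies.

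The IFIT proteins bind RNA ends that lack the marks of host mRNA and keep such RNA from being translated. Their 4 genes lie in 1 cluster on chromosome 19 and had ratios of both signs, with a median of -0.03. Ifit3 stood at 249.6 FPKM in WT and 217 in KO (-0.20), and its near copy Ifit3b at 43.4 and 36.6 FPKM (-0.24). These 2 genes share 41.1% and 35.7% of their 75-base stretches, and their summed FPKM, which depends less on how shared reads were divided than either value because the genes are of similar length, was 293 FPKM in WT and 254 in KO (-0.21). Ifit2 stood at 108 and 127 FPKM (0.24) and Ifit1, which binds capped RNA without host methylation, at 21.3 and 23.6 FPKM (0.14). Ratios of both signs thus lay within a single gene cluster.

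The OAS enzymes make oligoadenylates that switch on RNase L, which then degrades RNA. Oas2 had the highest ratio of the family, at 103 FPKM in WT and 140.5 in KO (0.44, counting interval 0.40 to 0.48). Its neighbour Oas3, whose product is the most responsive to long double-stranded RNA, stood at 95.8 and 84.6 FPKM (-0.18). Oas1a was at 151 FPKM in WT and 129.9 in KO (-0.21), and its near copy Oas1g at 81.7 and 81.0 FPKM (-0.01, positive under the other scalings and after length-matched centring). These 2 share 47.6% and 36.9% of their 75-base stretches, and their sum was 232 FPKM in WT and 211 in KO (-0.14). Oasl2 stood at 156 and 161 FPKM (0.05). Oasl1, whose product represses translation of Irf7 mRNA in mice, stood at 96.6 FPKM in WT and 79.7 in KO (-0.27). The family median was -0.09, with 4 of 6 below 0.

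The ISG15 system was the 1 role group with every ratio below 0, and Isg15 had the largest difference of the 41 genes. Isg15 encodes a ubiquitin-like protein that is conjugated to newly made proteins and also secreted. It stood at 88.9 FPKM in WT and 57.6 in KO, which is 35.2% lower (log2 ratio -0.62, counting interval -0.75 to -0.49). Among all measured genes, 13.8% had a ratio of larger size in either direction. Usp18, the protease that removes ISG15 and dampens signalling at Ifnar2, stood at 41.2 and 38.9 FPKM (-0.08). Herc6, the main ISG15 ligase of mice, stood at 30.2 FPKM in WT and 28.0 in KO (-0.11). Outside the set, the activating enzyme Uba7 was at 51.5 and 64.8 FPKM (0.33) and the conjugating enzyme Ube2l6 at 80.9 and 64.3 FPKM (-0.33), both named after their values were seen, so the enzymes of the conjugation cascade had ratios of both signs.

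The 9 antiviral effectors had a median ratio of -0.01, and 7 of them lay within 0.2 of 0. Ifitm3, a membrane protein that blocks fusion of virions in endosomes, was the most abundant of the 41 genes, at 1030.3 FPKM in WT and 922 in KO (-0.16). Samhd1, which depletes the nucleotides needed for reverse transcription, stood at 391 and 348 FPKM (-0.17). Bst2 encodes tetherin, which holds budding virions at the cell surface, and was at 182 FPKM in WT and 159 in KO (-0.19). Of these 3 genes, each was within 0.2 of 0. Trim30a, a regulator of Toll-like receptor signalling, stood at 125 and 138 FPKM (0.14). Rsad2 encodes viperin, which makes a chain-terminating nucleotide, and was at 54.7 and 57.4 FPKM (0.07). Its neighbour Cmpk2, a mitochondrial nucleotide kinase, was at 29.5 FPKM in WT and 34.98 in KO (0.24). The dynamin-like GTPases were Mx1 at 46.6 and 46.2 FPKM (-0.01, positive under the other scalings) and Mx2 at 8.28 and 10.6 FPKM (0.32, counting interval 0.16 to 0.49). Isg20, an RNA exonuclease, stood at 5.56 FPKM in WT and 4.82 in KO (-0.17), and its counting interval from -0.48 to 0.13 includes 0.

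The remaining 9 genes had a median ratio of 0.10 and held the 3 highest ratios of the set. Slfn8 and Slfn5 are neighbouring schlafen genes on chromosome 11, a family tied to lymphocyte quiescence and to RNA cleavage. Slfn8 stood at 46.9 FPKM in WT and 67.7 in KO (0.52, counting interval 0.46 to 0.58), and Slfn5 at 121 and 171 FPKM (0.50, just short of the smaller size rule). Other schlafen genes had ratios on the other side of 0, such as Slfn9 at 29.4 and 15.4 FPKM (-0.89). Slfn8 shares 6.99% of its 75-base stretches with other genes, 4.98% with Slfn10-ps and 3.68% with Slfn9. The sum of Slfn8 and Slfn9 was 76.4 FPKM in WT and 83.1 in KO (0.12). With so few shared stretches, this sum says little of how reads were divided. Parp14, a mono-ADP-ribosyltransferase of macrophage signalling, stood at 68.0 and 94.5 FPKM (0.47). At the other end, Ifi27l2a, which encodes a small hydrophobic membrane protein, stood at 574 FPKM in WT and 416 in KO (-0.46), the next lowest ratio after Isg15. Lgals3bp, a secreted glycoprotein that binds galectin-3, was at 695 and 746 FPKM (0.10). Rtp4, a receptor chaperone, was at 145 and 156 FPKM (0.10), Xaf1, an antagonist of the apoptosis inhibitor XIAP, was at 68.0 and 68.4 FPKM (0.01, negative after length-matched centring), and Ifi44 was at 23.1 and 25.9 FPKM (0.15). Ifi35, a partner of Nmi, stood at 50.5 and 46.2 FPKM (-0.13).

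**Figure D3:**
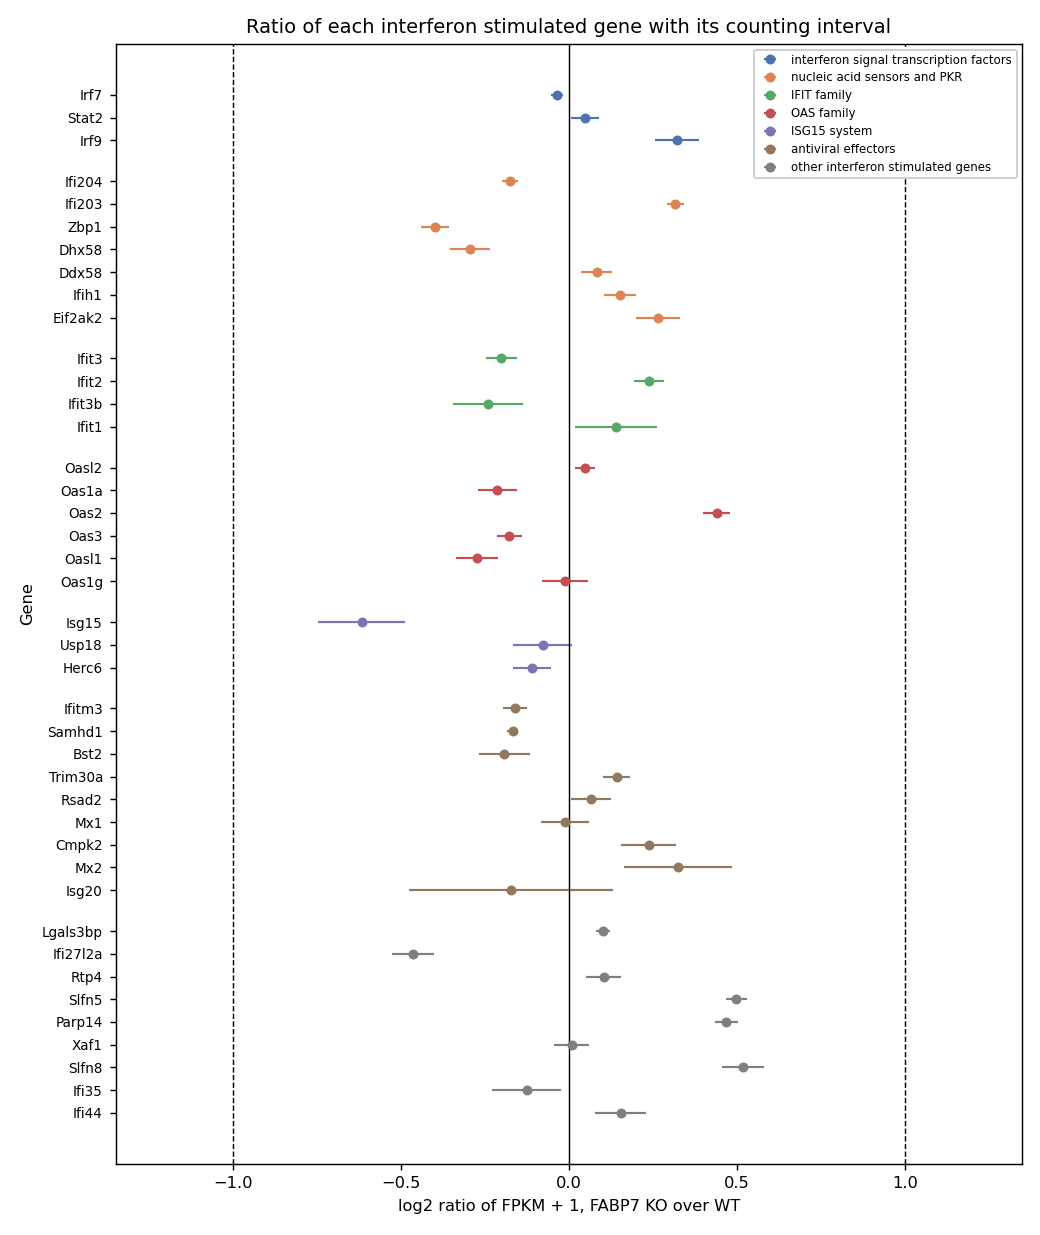
Ratio of FABP7 KO over WT (log2 of FPKM + 1) for each of the 41 interferon stimulated genes, coloured by role, with lines for the 95% counting interval from the estimated depth. Dashed lines mark the 2-fold size rule, which no gene reaches, and the ratios run from -0.62 (Isg15) to 0.52 (Slfn8).

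With the FPKM as deposited, neighbouring genes had ratios of the same sign in 2 of 7 clusters. Of the 7 clusters in which 2 or more of the 41 genes lie within 250 kb of the next in the RefSeq annotation, Slfn5 and Slfn8 (0.50 and 0.52) and Rsad2 and Cmpk2 (0.07 and 0.24) had ratios of 1 sign. The IFIT cluster ran from -0.24 to 0.24 and the cluster of Oas2, Oas3, Oas1g and Oas1a from -0.21 to 0.44. Oasl1 and Oasl2 ran from -0.27 to 0.05, Mx1 and Mx2 from -0.01 to 0.32, and Ifi204 and Ifi203 from -0.18 to 0.32. Under the 2 other scalings Mx1 was positive (0.02 and 0.04), as was Mx2 (0.36 and 0.37), so the count of clusters with 1 sign depends on the scaling.

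The ratio moved with transcript length. The 14 genes of the set with the shortest summed exons (463 to 2790 bases) had a median log2 ratio of -0.18, with 12 of 14 below 0, whereas the 14 longest (4689 to 9306 bases) had a median of 0.12, with 3 of 14 below 0. Across the 41 genes Spearman's rho of ratio and exon length was 0.57, and across 10759 measured genes it was 0.11. These correlations are across genes of the same 2 libraries and were computed after the values were seen. Isg15 (756 bases) and Ifi27l2a (463 bases), the genes with the lowest ratios, are among the shortest of the set, and Parp14 (9306 bases, 0.47) is the longest. The next longest, Herc6 (9292 bases, -0.11) and Samhd1 (9150 bases, -0.17), lay below 0, and Slfn8, with the highest ratio, is of middle length (4091 bases). When all measured genes were put into 10 bins of exon length, the median ratio was -0.10 in the bin of the shortest and 0.06 in that of the longest genes. With the median of the matching bin subtracted (length-matched centring), the 41 ratios ran from -0.52 to 0.51 with a median of 0.02. The part of transcript length in the single ratios was not tested further.

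**Figure D4:**
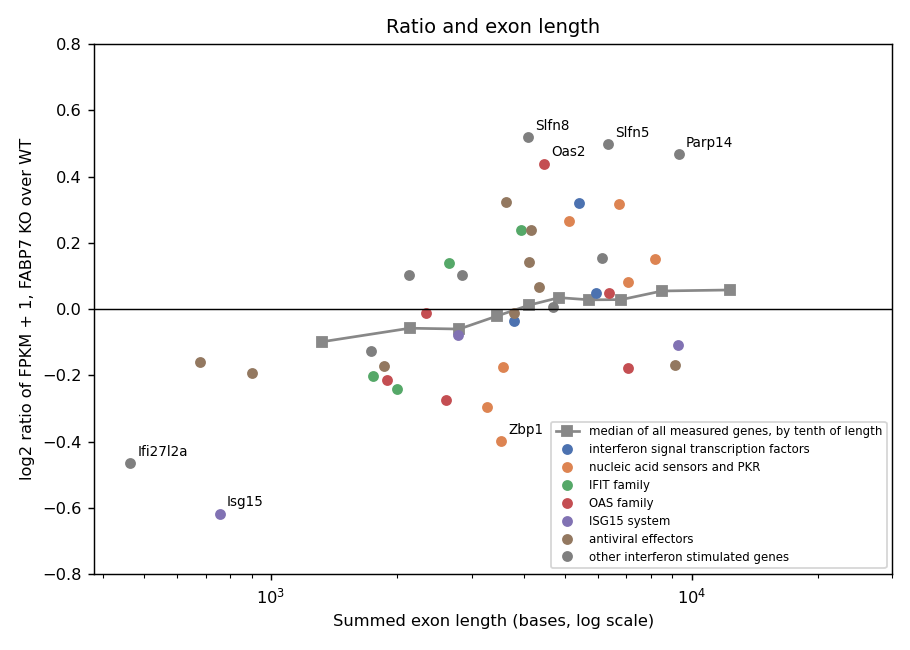
Ratio of FABP7 KO over WT (log2 of FPKM + 1) against summed exon length in bases (log axis) for the 41 interferon stimulated genes, coloured by role. Grey squares joined by a line are medians of all measured genes in 10 bins of length, from -0.10 to 0.06, and the 14 shortest of the 41 genes sit mostly below 0 and the 14 longest mostly above.

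The other genes of the pathway were described from 6 lists of 126 genes, of which 125 were in the table and 99 were measured at 1 FPKM or more. Of these 99, 0 were higher and 3 were lower in KO by the 2-fold rule, a share near the 2.95% of all measured genes that were lower (2.21% were higher), and their median ratio was 0.06. The 3 genes, named for their size alone, were interferon stimulated genes outside the set. Ms4a4c, a membrane protein of the MS4A family, stood at 167 FPKM in WT and 69.1 in KO (-1.26). Ly6a, which encodes the surface protein Sca-1, stood at 892 and 412 FPKM (-1.11). Ifit1bl1, a relative of Ifit1, stood at 19.5 FPKM in WT and 8.91 in KO (-1.05, and -0.99 after length-matched centring). Beside these, the 7 monocyte markers summed to 949 FPKM in WT and 457 in KO, nearly all of it Plac8 at 908 and 427 FPKM. Other monocyte markers were of both signs, with Ly6c2 (-0.96) below 0, Ccr2 at -0.07, and Chil3 (0.56), Fn1 (0.38) and F13a1 (0.17) above 0. The part of these markers in the 3 ratios was not tested.

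Transcripts of the interferons themselves were at or near 0. Of 21 ligand genes, 20 were listed at 0 in both libraries, among them Ifnb1, which at the estimated depth allows levels up to between 0.112 and 0.295 FPKM at 3 fragments, depending on gene length. Ifng, the type II interferon made mainly by lymphocytes, was at 0.18 and 0.14 FPKM. Markers of plasmacytoid dendritic cells, the main producers of interferon alpha, were below 1 FPKM for all 7 genes in both libraries.

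The receptors, JAKs and STATs had a median ratio of 0.26, with 9 of 10 measured genes above 0. Ifnar2 stood at 144 FPKM in WT and 175 in KO (0.28), and Ifnar1 at 28.2 and 40.65 FPKM (0.51), so both chains of the type I receptor had ratios above 0. Of the receptors for other interferons, Ifngr1 was at 194 and 243 FPKM (0.32) and Il10rb at 112 and 135 FPKM (0.27). Of the interferon regulatory factors, Irf1 was at 105 and 113 FPKM (0.10), Irf5 at 99.2 and 103 FPKM (0.06) and Irf2, which can repress ISRE promoters, at 102 FPKM in WT and 74.8 in KO (-0.44). Among the sensing adaptors, Unc93b1, which carries nucleic acid sensing Toll-like receptors to endosomes, was at 415 and 522 FPKM (0.33) and Tlr7 at 118 and 121 FPKM (0.03). Of the inhibitors, the phosphatase Ptpn6 was at 282 and 307 FPKM (0.12), and Pias1 at 29.3 and 28.6 FPKM (-0.03).

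Of 64 further interferon stimulated genes measured, 32 lay above 0 and 32 below, with a median of 0.002. At a size of 0.5, 3 of the 64 were higher and 9 lower, where 10.5% and 10.1% of all measured genes passed. The summed level of these further genes differed by -7.70%, beside -3.95% for the 41 genes and -3.12% for all genes. Ly6e, which restricts coronavirus entry, was the most abundant at 3438 FPKM in WT and 3402 in KO (-0.01). Close to 0 were also Rnf213 at 278 and 276 FPKM (-0.01), Slfn2 at 225 and 223 FPKM (-0.01) and Sp100 at 218 and 210.5 FPKM (-0.05). The relatives of genes in the set did not all follow them. Ifitm2 was at 320.2 FPKM in WT and 422 in KO (0.40), where Ifitm3 was below 0. Of the p200 family, Ifi205 was at 181 and 119 FPKM (-0.61), Ifi211 at 285 and 219 FPKM (-0.38), Ifi207 at 171 and 181 FPKM (0.08) and Mndal at 272 and 307 FPKM (0.17). The others at 100 FPKM or more were Lgals9 at 302 and 255 FPKM (-0.24), Epsti1 at 166 and 139 FPKM (-0.26), Helz2 at 141 and 127 FPKM (-0.15), Phf11d at 107 and 87.4 FPKM (-0.29), Znfx1 at 163 and 174.5 FPKM (0.10) and Shisa5 at 153 and 171 FPKM (0.16), all short of the 2-fold rule.

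**Figure D5:**
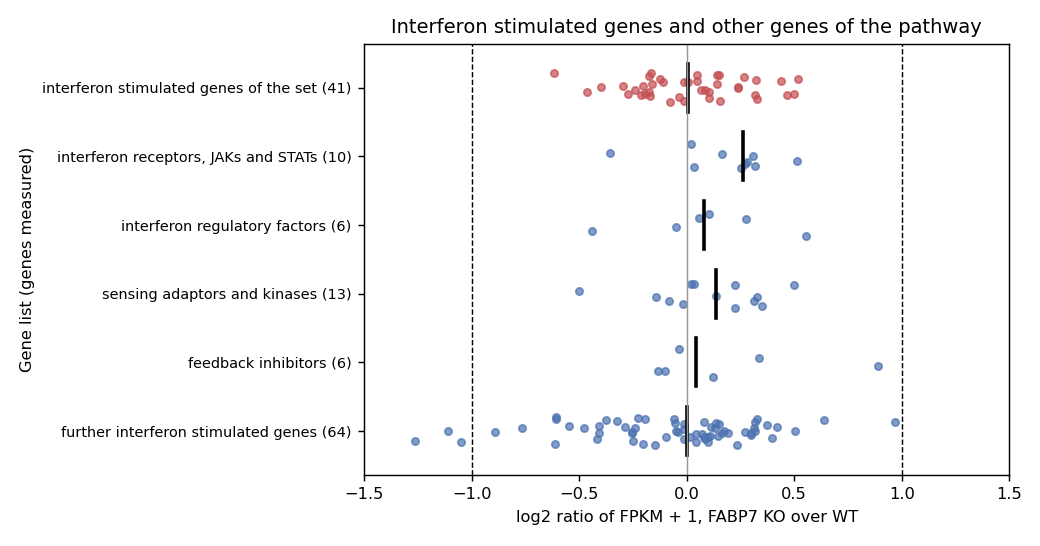
Ratio of FABP7 KO over WT (log2 of FPKM + 1) for the 41 interferon stimulated genes and the measured genes of 5 other lists of the pathway, with 1 point per gene, a black bar at each list's median and dashed lines at the 2-fold rule. Medians run from 0.002 for the further interferon stimulated genes to 0.26 for receptors, JAKs and STATs, and the 3 points beyond the dashed line are Ms4a4c, Ly6a and Ifit1bl1.

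The cell label was checked with marker genes. The macrophage markers Csf1r (2372 and 3173 FPKM) and Adgre1 (864 and 925 FPKM), which encodes F4/80, and the Kupffer cell marker Clec4f (3188 and 4156 FPKM) were high in both libraries. Summed macrophage markers were 5858 FPKM in WT and 8100.0 in KO, and Kupffer cell markers 14849.8 and 15428.5 FPKM. Of the 8 Kupffer cell markers, 5 had ratios above 0 and 3 below. Marco had the lowest ratio of these, at 1377 FPKM in WT and 714 in KO (-0.95). Hepatocyte markers summed to 272 and 530.3 FPKM, sinusoidal endothelial markers to 148 and 260.0 FPKM and neutrophil markers to 36.6 and 96.3 FPKM, all higher in KO. Tumour epithelial markers summed to 6.23 and 5.23 FPKM, with Epcam at 0 in WT and 0.13 FPKM in KO. Summed markers were also higher in KO for stellate cells and fibroblasts (17.4 and 48.2 FPKM), B cells (9.21 and 24.4 FPKM), conventional dendritic cells (17.3 and 28.7 FPKM) and T cells (4.76 and 7.32 FPKM), and were 4.68 and 4.51 FPKM for NK cells and 1.57 and 1.84 FPKM for plasmacytoid dendritic cells. All 8 cell division genes were lower in KO, with a median ratio of -2.71, in the same libraries in which the interferon stimulated genes had a median of 0.008. In bulk RNA, fewer cells of a type and less RNA per cell cannot be told apart, and the part of these differences in the ratios above was not tested.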

How the data were processed

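mRNA sequencing of macrophages gave 1 library from WT and 1 from FABP7 KO mice, assigned by the sample titles. The authors deposited FPKM values with 2 decimals for 22322 genes. Bowtie2 2.2.8 and TopHat2 2.1.1 appear in the submitters' processing notes with no role. The build, the annotation and the counter were not given in the sources used here. Tables of the single libraries and of both libraries held the same values, with 0 differences.

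Gene symbols (22267 of 22322 IDs, 55 unmatched) and exon lengths were taken from GENCODE vM21 and promoters from RefSeq (GRCm38.p6), whose coordinates are those of the reference and not of the authors' build. Mnda was not in the annotation used, and Sting1 is listed there as Tmem173. From the deposited FPKM, ratios of KO to WT were taken on the log2 scale after adding a pseudocount of 1, which understates the change of low genes. Genes reaching 1 FPKM in WT or KO (10770) were counted as measured. With 1 library per genotype no test was made, and a log2 size of 1 served as the rule. Counting intervals (95%) used depths estimated from the steps between low values. Reads shared between copies were judged from identical 75-base stretches of the transcripts. The scripts were tested on simulated data.

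All 41 genes were named. Of 126 other pathway genes, those past the size rule, those at 100 FPKM or more in a library and the 2 most abundant of each list of receptors, factors, adaptors and inhibitors were named, and others are said to be named after their values were seen or because a gene of the set shares sequence or a complex with them. The genes and lists were chosen with earlier results of these data known. The length, copy and Slfn8 promoter checks were added after values were seen. Alternatives were no floor or one of 5 FPKM, a smaller pseudocount (0.1), 2 other scalings of the libraries, a size rule of 0.5, leaving out genes with close copies, and length-matched centring. The scripts ran under Python 3.11.15 with pandas 2.3.3, NumPy 2.4.6 and, for plots, Matplotlib 3.10.9. The values of some genes are left out of the text.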

Additional observations from a re-analysis of the deposited data

How the results depend on the processing

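No paired analysis was possible because each genotype has 1 library and the labels give no replicate numbers, and for the same reason no replicate could be left out. With a size rule of 0.5, the genes of the set past it numbered 1 higher and 1 lower, instead of 0 and 0, and the other pathway genes past it 16 of 99 instead of 3, where 20.7% of all measured genes passed. With a pseudocount of 0.1 FPKM, 5 other pathway genes passed, Socs3 (1.07) and Ifitm1 (1.11) being added. No gene of the set reached a log2 ratio of 1 with a pseudocount of 0.1, with a floor of 5 FPKM or none, under both scalings or, added after the values were seen, with length-matched centring. Over the alternatives the median of the set ran from 0.008 to 0.06 and the medians of the role groups from -0.16 to 0.16. The genes below 0 ran from 15 to 20, the 15 being of 33 left after 8 with close copies were taken out. These 8 were picked by name. Herc6, Rtp4 and Ifit1 stayed in, which share 11.3%, 10.5% and 5.19% of their 75-base stretches with other genes. The scalings multiplied KO by 1.03 (from genes at 10 FPKM or more in both) and 1.04 (from totals without hepatocyte, hemoglobin and mitochondrial genes), which shifts all ratios by 0.04 and 0.05. Under these, Irf7 (0.0007 and 0.01), Oas1g (0.03 and 0.04) and Mx1 (0.02 and 0.04) turned positive, and Ifitm1 passed the size rule (1.00 and 1.01). With length-matched centring Oas1g became 0.05 and Xaf1 -0.03, Ifitm1 passed (1.07) and Ifit1bl1 did not (-0.99). Depth limits Isg20 and Mx2 most.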
